A study of Mus musculus with 14 samples.

Results

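The amino acid transporters described here are the genes of 7 solute carrier families, Slc1a, Slc3a, Slc6a, Slc7a, Slc36a, Slc38a, and Slc43a. They were chosen by gene symbol alone, and 64 of the 21878 genes listed carry such a symbol. Slc6a6, Slc6a12, and Slc7a11 were left out, and of the 61 genes that remained, 46 reached 0.1 FPKM (fragments per kilobase of transcript, scaled to library size, a unit inferred from the values since no source states it) in at least 3 of 14 mice and 15 did not. The last member to pass was Slc6a7, with 3 mice at or above that level, and Slc1a6 and Slc6a19os fell just short with 2. Some members were grouped by symbol and are not carriers of the amino acids of proteins. Slc6a8 carries creatine, Slc6a4 serotonin, and Slc6a13 GABA, and Slc7a6os is a neighbouring gene that overlaps Slc7a6.

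Whole-kidney RNA came from male C57BL/6J mice in 4 groups, which were WT control (n = 3), Cfb-/- control (n = 3), WT diabetic (n = 4), and Cfb-/- diabetic (n = 4). Cfb encodes complement factor B, which the alternative complement pathway needs, and its deletion was global, so it was absent from every cell type and not from the tubule alone (1 label field calls it a knockdown). The study started with mice aged 8 weeks. Diabetic mice ate a diet with 60% of calories from fat for some weeks and were then injected with streptozotocin (STZ), a toxin of the insulin-producing beta cells, at 60 mg/kg on 5 days running, and control mice ate a diet with 10% of calories from fat and received citrate buffer. Kidneys were taken 21 weeks after STZ, and 34 weeks is the time stated in the labels. Diet and STZ went together in every mouse, so their shares in any difference cannot be told apart. The treatment field of the labels reads alike for control and diabetic mice, and the groups were therefore taken from the sample titles. The paper calls the WT mice littermates of the Cfb-/- mice, without saying which mice shared a litter. Nothing in the labels says that mice of a group shared or did not share a litter or cage, and p-values measure the spread between these mice.

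The kidney filters large amounts of free amino acids, and the proximal tubule takes nearly all of them back. Carriers in the apical brush border bring amino acids in from the filtrate, most of them coupled to sodium or working as exchangers, and carriers in the basolateral membrane pass them on to the blood. Several carriers are pairs of a glycoprotein heavy subunit (Slc3a1 at the apical side, Slc3a2 at the basolateral side) and a transporting light subunit of the Slc7a family. Loss of such carriers causes inherited aminoacidurias, among them cystinuria (Slc3a1 and Slc7a9), Hartnup disorder (Slc6a19), and lysinuric protein intolerance (Slc7a7). Other members serve the needs of every cell, taking up glutamine, leucine, or arginine for growth and metabolism.

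Promoters of 4 members are shown because these members stand for the patterns described below: Slc6a19 fell in diabetic kidneys, Slc3a1 did not pass the test in any comparison, and Slc38a2 and Slc7a1 rose. The sequences are RefSeq's, on GRCm38.p6, from 250 bases before to 50 bases after a start site, and 31 of the 46 members had such a sequence. Capitals mark matches, on either strand, to any of 5 motifs: GTTAAT, the core of an HNF1 site; CAAAGTCC, an HNF4 site; TTGCATCA, an element of amino acid response genes; CCAAT, the box bound by NF-Y; and TATAAA, the core promoter box.
Slc6a19, chr13:73692587-73692886, minus strand: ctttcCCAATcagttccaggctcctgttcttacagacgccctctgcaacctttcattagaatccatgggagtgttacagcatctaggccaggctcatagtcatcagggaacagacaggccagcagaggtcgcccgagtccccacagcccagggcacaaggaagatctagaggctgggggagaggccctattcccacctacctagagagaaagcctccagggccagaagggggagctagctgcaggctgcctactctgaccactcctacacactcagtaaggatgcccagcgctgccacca
Slc3a1, chr17:85028097-85028396, plus strand: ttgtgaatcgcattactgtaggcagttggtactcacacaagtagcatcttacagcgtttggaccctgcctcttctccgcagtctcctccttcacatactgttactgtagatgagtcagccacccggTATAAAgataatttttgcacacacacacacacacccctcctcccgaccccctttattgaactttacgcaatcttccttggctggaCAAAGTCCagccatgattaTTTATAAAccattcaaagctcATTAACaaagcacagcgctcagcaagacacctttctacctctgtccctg
Slc38a2, chr15:96699679-96699978, minus strand: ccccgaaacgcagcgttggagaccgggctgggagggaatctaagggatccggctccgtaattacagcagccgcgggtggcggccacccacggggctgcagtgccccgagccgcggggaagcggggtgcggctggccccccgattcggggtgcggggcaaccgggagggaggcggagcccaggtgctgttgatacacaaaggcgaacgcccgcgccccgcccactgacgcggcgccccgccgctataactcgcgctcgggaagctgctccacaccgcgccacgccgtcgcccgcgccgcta
Slc7a1, chr5:148399855-148400154, minus strand: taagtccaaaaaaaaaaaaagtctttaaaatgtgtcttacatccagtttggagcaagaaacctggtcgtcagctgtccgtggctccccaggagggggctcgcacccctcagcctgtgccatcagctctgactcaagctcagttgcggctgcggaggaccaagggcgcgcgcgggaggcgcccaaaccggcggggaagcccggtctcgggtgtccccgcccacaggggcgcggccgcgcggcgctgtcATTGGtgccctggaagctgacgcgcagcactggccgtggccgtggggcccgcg

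The Slc3a1 window held an HNF1 core starting at base 2 after the start, an HNF4 site at base -39, and TATA boxes at bases -124, -20, and -18, of which the last pair overlap. The Slc6a19 window held a CCAAT box at base -245 and the Slc7a1 window another at base -3, and the Slc38a2 window held none of the 5 motifs. RefSeq's start for the Slc6a19 window lies inside the span given for that gene (chr13:73679745-73700780), so this window may not be the gene's main promoter. Of the 32851 promoters of the table, 7.1% held the HNF1 core, 1.42% the HNF4 site, 0.895% the amino acid response element, 37.4% a CCAAT box, and 13.6% a TATA box. Among the members with a promoter, 5 held the HNF1 core (Slc36a1, Slc3a1, Slc6a13, Slc6a20a, and Slc7a7), 1 the HNF4 site, and 2 the amino acid response element (Slc1a4 and Slc7a7). A match is a run of letters only, and binding was not measured.

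In the libraries as a whole, summed FPKM was 372884 to 488196 in control mice and 330246 to 364953 in diabetic mice, without overlap. Values of mice of the same group correlated at 0.981 to 0.990 (log scale, across genes). The targeted gene followed the labels, with Cfb at 1.13 to 2.22 FPKM in Cfb-/- mice and 56.7 to 131 FPKM in WT mice. Proximal tubule markers were high in every mouse, at a summed FPKM of 4830.4 to 5127 over 10 genes in WT control, 4649 to 4744 in Cfb-/- control, 2512 to 3219.9 in WT diabetic, and 1982 to 3094 in Cfb-/- diabetic mice. Injury markers of the tubule (6 genes) went from 324 to 369.6 and 357 to 452 in WT and Cfb-/- control mice to 1713 to 2771 and 1438 to 2836 in diabetic mice. Leukocyte markers (7 genes) went from 24.1 to 29.1 and 16.6 to 39.5 to 136 to 184 and 105 to 199. Adipocyte markers (4 genes) summed to 7.01 to 30.6 in WT diabetic mice and to 0.102 to 0.386 in Cfb-/- diabetic mice, and urothelial markers (5 genes) to 0.6899 to 45.7 and 1.22 to 3.09. In WT and Cfb-/- control mice the adipocyte sums were 0 to 0.145 and 0 to 9.38. The urothelial sums were 0.279 to 0.610 and 0.607 to 8.77 there. In bulk RNA, fewer cells of a type and less RNA per cell cannot be told apart, and the part of these marker changes in the results below was not tested.

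Transporter RNA was dominated by apical proximal tubule genes. In WT control kidneys the levels ran from Slc7a13 (475 ± 163 FPKM, SD, n = 3) and Slc3a1 (225 ± 33.97) to Slc36a2, listed at 0 in 2 of 3 mice. Slc7a13, a light subunit of the last segment of the proximal tubule, Slc3a1, and Slc6a18, a glycine and neutral amino acid carrier, were the top 3 in every group and together made up 59.3% of the summed FPKM of the 46 members in WT control, 62.5% in Cfb-/- control, 52.6% in WT diabetic, and 52.9% in Cfb-/- diabetic kidneys. The 9 apical members together held 75.9%, 77.4%, 66.3%, and 65.8% in the same order. Slc1a1 (84.8 ± 13.6), the apical glutamate carrier, and Slc6a20b (61.7 ± 7.17) came next in WT control mice. Below them Slc6a8, Slc7a7, Slc6a19, and Slc7a9 followed between 37.5 and 48.5 FPKM, and these neighbours overlapped in their spread. FPKM corrects for transcript length, so levels of different genes may be set side by side. Of the 46 members, 17 averaged at least 10 FPKM in WT control mice, 15 lay from 1 to 10, and 14 lay under 1.

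**Figure D1:**
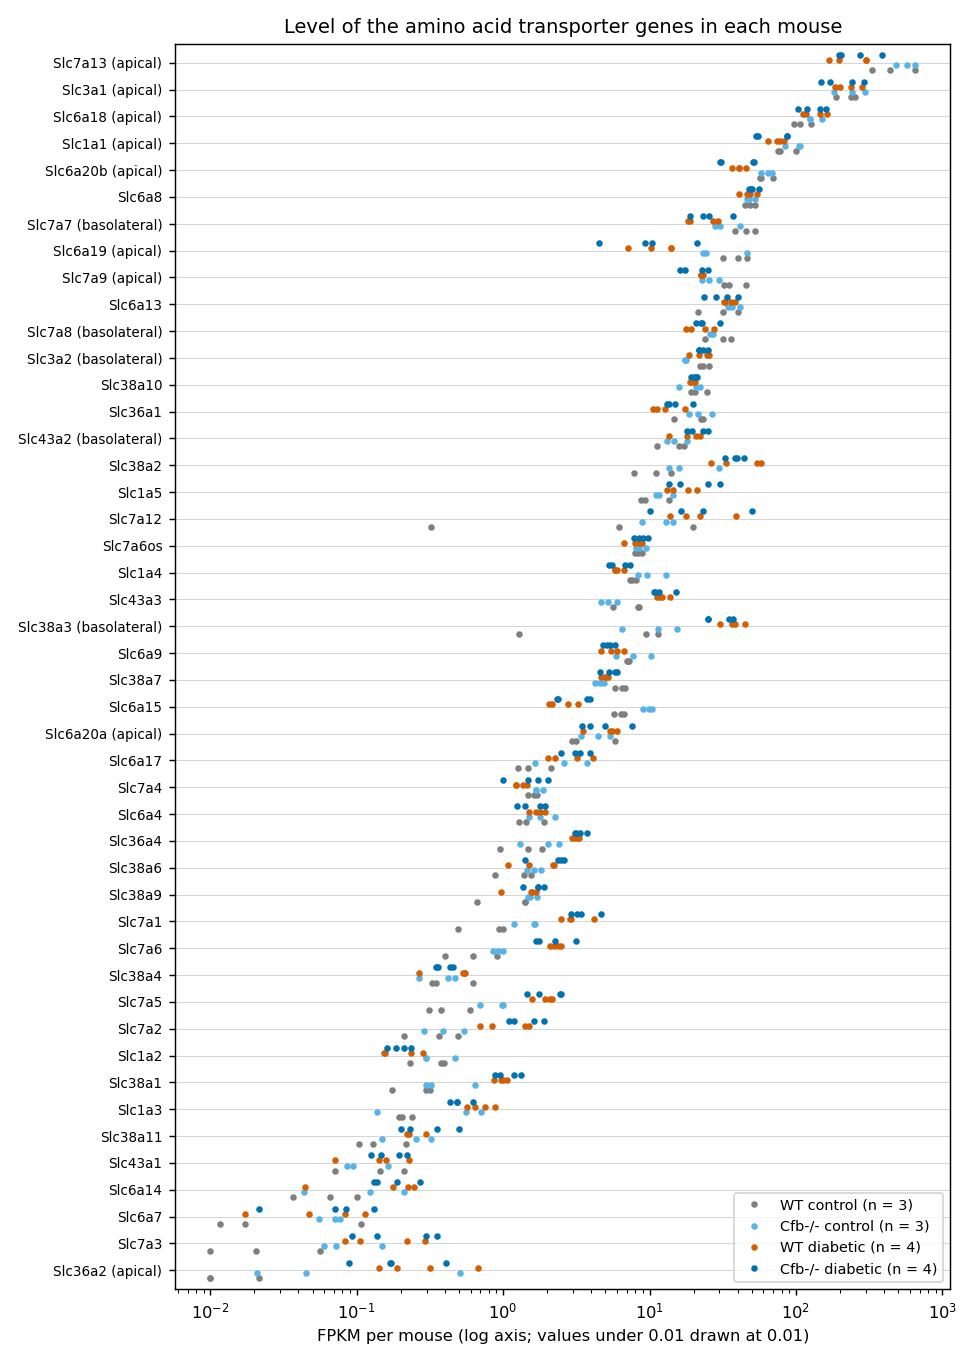
Level of each of the 46 amino acid transporter genes (FPKM, log axis, values under 0.01 drawn at 0.01), ordered by the mean of WT control mice, with 1 point per mouse and colours for the 4 groups. Slc7a13, Slc3a1, and Slc6a18 lead in every group, while Slc6a19 points of diabetic mice lie to the left of control points and Slc38a2 and Slc38a3 points of WT diabetic mice to the right of WT control points.

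To ask what diabetes did to these genes, diabetic mice were compared with control mice within each genotype, with limma on log2(FPKM + 0.1) fitted across 14912 genes and Benjamini-Hochberg adjustment over all of them. In WT mice, 15 of 46 members rose and 9 fell (adjusted p under 0.05). Together 52.2% of the members were called there, beside 46.1% of all genes, and 39.1% in Cfb-/- mice, beside 33.8%. Over all genes tested, 36.2% rose and 9.97% fell, so the members' 32.6% higher was near the background and their 19.6% lower was above it. In Cfb-/- mice, 11 members rose (23.9%, background 27.4%) and 7 fell (15.2%, background 6.4%). The median gene of the whole table was itself higher in diabetic kidneys, by 0.29 (log2) in WT and 0.22 in Cfb-/- mice, and this shift was 0.03 and -0.01 once columns were scaled by median ratios. With that scaling 12 members rose and 17 fell in WT mice and 8 rose and 10 fell in Cfb-/- mice, and with quantile normalization 9 rose and 13 fell, and 7 rose and 10 fell. Beside these, 22.7% of all genes rose and 22.4% fell in WT mice with median-ratio scaling (members 26.1% and 37.0%) and 18.5% and 14.1% in Cfb-/- mice (17.4% and 21.7%), and with quantile normalization 15.9% and 20.1% in WT (members 19.6% and 28.3%) and 14.4% and 14.9% in Cfb-/- mice (15.2% and 21.7%). The members' share of falls was above the background in each of these 3 settings and both genotypes, and in WT mice their share of rises was a little below it unscaled and a little above it scaled. Of the 15 that rose in WT mice, Slc36a2 and Slc7a3 reached 0.1 FPKM in no WT control mouse. Their calls are descriptions and support no count of rises. With only genes at 1 FPKM or more in 3 mice tested, which left both out, 12 of 37 members rose in WT mice. Of all 11962 genes so tested, 4220 rose. No called member changed direction under these scalings, although calls were lost. At the study's own criteria (fold change over 2 or under 0.5 with an unadjusted P under 0.05), 12 members were higher and 2 lower in WT mice (background 15.6% and 1.82%) and 8 higher and 3 lower in Cfb-/- mice (13.3% and 1.66%). All values below are unscaled, and the shift should be taken off to read them against the typical gene. Summed FPKM was higher in control mice, as given above, so sums of FPKM below compare libraries of unequal total. As a share of all FPKM, the 46 members held 0.267% to 0.416% in WT control and 0.261% to 0.370% in WT diabetic mice. In Cfb-/- mice the shares were 0.327% to 0.446% (control) and 0.284% to 0.420% (diabetic), and the ranges overlapped in both genotypes. By groups that did not overlap, 13 members lay higher and 10 lower in WT diabetic than in WT control mice (background 35.5% and 9.84%), and 11 lay higher and 7 lower in Cfb-/- mice (background 33.6% and 8.64%). The 12 higher at the study's criteria and the 13 without overlap in WT mice count Slc36a2 and Slc7a3. Those rises are descriptions only, so these counts are not to be read against the background.

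Among apical carriers most of the calls were falls, and 3 genes (Slc6a19, Slc7a13, and Slc6a20b) fell in both genotypes. Of the 9, 4 fell in WT mice (Slc6a19, Slc7a13, Slc7a9, and Slc6a20b), which is 44.4% beside 9.97% of all genes. Slc36a2 was called higher, a description only as given below (11.1% beside 36.2%), and 4 did not pass. The median log2 fold change of the 9 was -0.18 beside 0.29 for all genes. In Cfb-/- mice 4 fell (Slc6a19, Slc7a13, Slc6a20b, and Slc1a1), which is 44.4% beside 6.4% of all genes, and none rose (background 27.4%). The other 5 did not pass, and the median of the 9 was -0.37 beside 0.22. The summed level of the 9 was 844 to 1283 FPKM in WT control, 979 to 1329 in Cfb-/- control, 599 to 899 in WT diabetic, and 570.3 to 1015 in Cfb-/- diabetic mice.

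Slc6a19, the main sodium-coupled carrier of neutral amino acids in the brush border, showed the deepest fall among the apical genes. Slc6a19 values (FPKM) were 40.1, 31.98, and 46.2 in the WT control mice, 46.6, 24.4, and 23.4 in the Cfb-/- control mice, 13.98, 13.97, 10.3, and 7.13 in the WT diabetic mice, and 4.55, 9.305, 21.03, and 10.4 in the Cfb-/- diabetic mice. Every diabetic mouse lay below every control mouse of its genotype, with Cfb-/- diabetic mouse 3 the highest diabetic value. On the log2 scale Slc6a19 changed by -1.82 (SE 0.40, adjusted p = 0.00233) in WT and -1.59 (SE 0.40, adjusted p = 0.00671) in Cfb-/- mice, a 3.54-fold and 3.02-fold lower level. Slc6a18, its close relative on the same membrane, did not pass in either genotype as deposited. Slc6a18 values (FPKM) were 128, 107, and 96.9 in the WT control mice, 125, 124, and 151 in the Cfb-/- control mice, 118, 147, 163, and 112 in the WT diabetic mice, and 119, 103, 146, and 159.9 in the Cfb-/- diabetic mice. The groups overlapped, and the log2 fold changes were 0.28 (SE 0.17, adjusted p = 0.177) and -0.032 (SE 0.17, adjusted p = 0.901), with 95% intervals of -0.075 to 0.64 and -0.39 to 0.32. Relative to the median gene these values were -0.0065 and -0.25, and their sign depended on the scaling: in WT mice the value was -0.0011 with median-ratio scaling and, past the threshold, 0.48 with quantile normalization (adjusted p = 0.0346 by limma). The Slc6a18 level per Slc6a19 level was thus 2.097 to 3.35 in WT control and 2.69 to 6.44 in Cfb-/- control mice, and 8.43 to 15.8 and 6.93 to 26.1 in the diabetic mice. This ratio, like those below, was chosen after the values were seen and is given as a description.

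Slc7a13, the most abundant of the transporters, fell in both genotypes. Slc7a13 values (FPKM) were 652, 441, and 332 in the WT control mice, 569.8, 479, and 653 in the Cfb-/- control mice, 197, 299, 301, and 167 in the WT diabetic mice, and 196, 205, 275, and 385 in the Cfb-/- diabetic mice. The diabetic and control ranges did not overlap within a genotype. The log2 fold change was -0.97 (SE 0.28, adjusted p = 0.0117) in WT and -1.14 (SE 0.28, adjusted p = 0.00569) in Cfb-/- mice, and the WT call was lost without WT control mouse 1, which held the highest WT value (-0.71, adjusted p = 0.053), and with quantile normalization (-0.64). Slc7a9, the light subunit of the cystine and basic amino acid exchanger, was lower in WT diabetic mice. Slc7a9 values (FPKM) were 34.6, 32.3, and 45.7 in the WT control mice, 29.97, 22.8, and 25.6 in the Cfb-/- control mice, 23.1, 22.6, 22.5, and 22.6 in the WT diabetic mice, and 17.6, 16.1, 25.03, and 22.7 in the Cfb-/- diabetic mice. The WT groups were apart, with little spread among the diabetic mice, whereas the Cfb-/- groups overlapped. Its log2 fold change was -0.71 (SE 0.16, adjusted p = 0.00247) in WT and -0.37 (SE 0.16, adjusted p = 0.0789) in Cfb-/- mice. The Cfb-/- value passed with median-ratio scaling (-0.62, adjusted p = 0.00927 by limma) and without Cfb-/- diabetic mouse 3 (-0.48, adjusted p = 0.0251).

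Slc3a1, the heavy subunit that carries both Slc7a9 and Slc7a13 to the brush border, did not pass in any comparison. Slc3a1 values (FPKM) were 251, 237, and 187 in the WT control mice, 240.2, 183, and 298 in the Cfb-/- control mice, 199.7, 283, 238, and 183 in the WT diabetic mice, and 172, 149, 241, and 292 in the Cfb-/- diabetic mice. The 4 groups overlapped widely. Slc3a1 had a log2 fold change of -0.003 (SE 0.23, adjusted p = 0.993) in WT mice, with a 95% interval of -0.50 to 0.49, and -0.20 (SE 0.23, adjusted p = 0.543) in Cfb-/- mice, with an interval of -0.69 to 0.30. Summed light subunits (Slc7a9 and Slc7a13) per heavy subunit were 1.999 to 2.73 in WT control and 2.27 to 2.74 in Cfb-/- control mice. In diabetic mice the same quotient was 1.03 to 1.36 (WT) and 1.25 to 1.48 (Cfb-/-), below every control mouse.

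The remaining apical members split. Slc6a20b fell in both genotypes, by a log2 fold change of -0.58 (SE 0.18, adjusted p = 0.0182) and -0.67 (SE 0.18, adjusted p = 0.0105), from 57.1 to 69.99 and 57.5 to 68.6 FPKM in WT and Cfb-/- control mice to 36.6 to 45.8 and 30.5 to 52.03 FPKM. The WT call was lost without WT control mouse 1 (-0.49) and with quantile normalization (-0.48). Its near-identical paralog Slc6a20a was at 2.94 to 5.77, 3.42 to 5.402, 3.54 to 6.04, and 3.48 to 7.55 FPKM in the same order and passed in neither (0.41 and 0.12), and reads shared by these paralogs could have been divided between them by the authors' counting. Slc1a1, the glutamate and aspartate carrier, was at 107, 84.1, and 105 FPKM in Cfb-/- control and 55.04, 53.5, 86.3, and 86.3 in Cfb-/- diabetic mice. These groups overlapped, with Cfb-/- diabetic mice 3 and 4 at the level of the lowest control, and the log2 fold change was -0.52 (SE 0.18, adjusted p = 0.0383) in Cfb-/- and -0.18 (SE 0.18, adjusted p = 0.438) in WT mice. The Cfb-/- call was lost when Cfb-/- diabetic mouse 1 or 2 or Cfb-/- control mouse 1 or 3 was left out, with values of -0.40 to -0.47, and with quantile normalization (-0.47). It was also lost without the 0.1 FPKM filter, with only the compared groups in the fit (-0.52 in both), and with the replicate number as a block (-0.54). Slc36a2, a proton-coupled glycine and proline carrier, was near the limit of detection. It was listed at 0, 0, and 0.0215 FPKM in WT control and 0.189, 0.143, 0.6697, and 0.318 in WT diabetic mice, a log2 fold change of 1.86 (SE 0.52, adjusted p = 0.0101) whose size ran from 0.38 to 4.29 with the constant added before taking logs and the scaling. Of the 8 mice in which it reached 0.1 FPKM, 4 were WT diabetic, 3 Cfb-/- diabetic, 1 Cfb-/- control, and 0 WT control, so it entered the test through the group in which it was high, and its WT call is a description that supports no count of rises. Quantile normalization removed that call (1.30). In Cfb-/- mice its values were 0.504, 0.0207, and 0.0450 (control) and 0.405, 0.172, 0.169, and 0.0885 (diabetic), which overlapped, and the value of 0.40 did not pass.

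**Figure D2:**
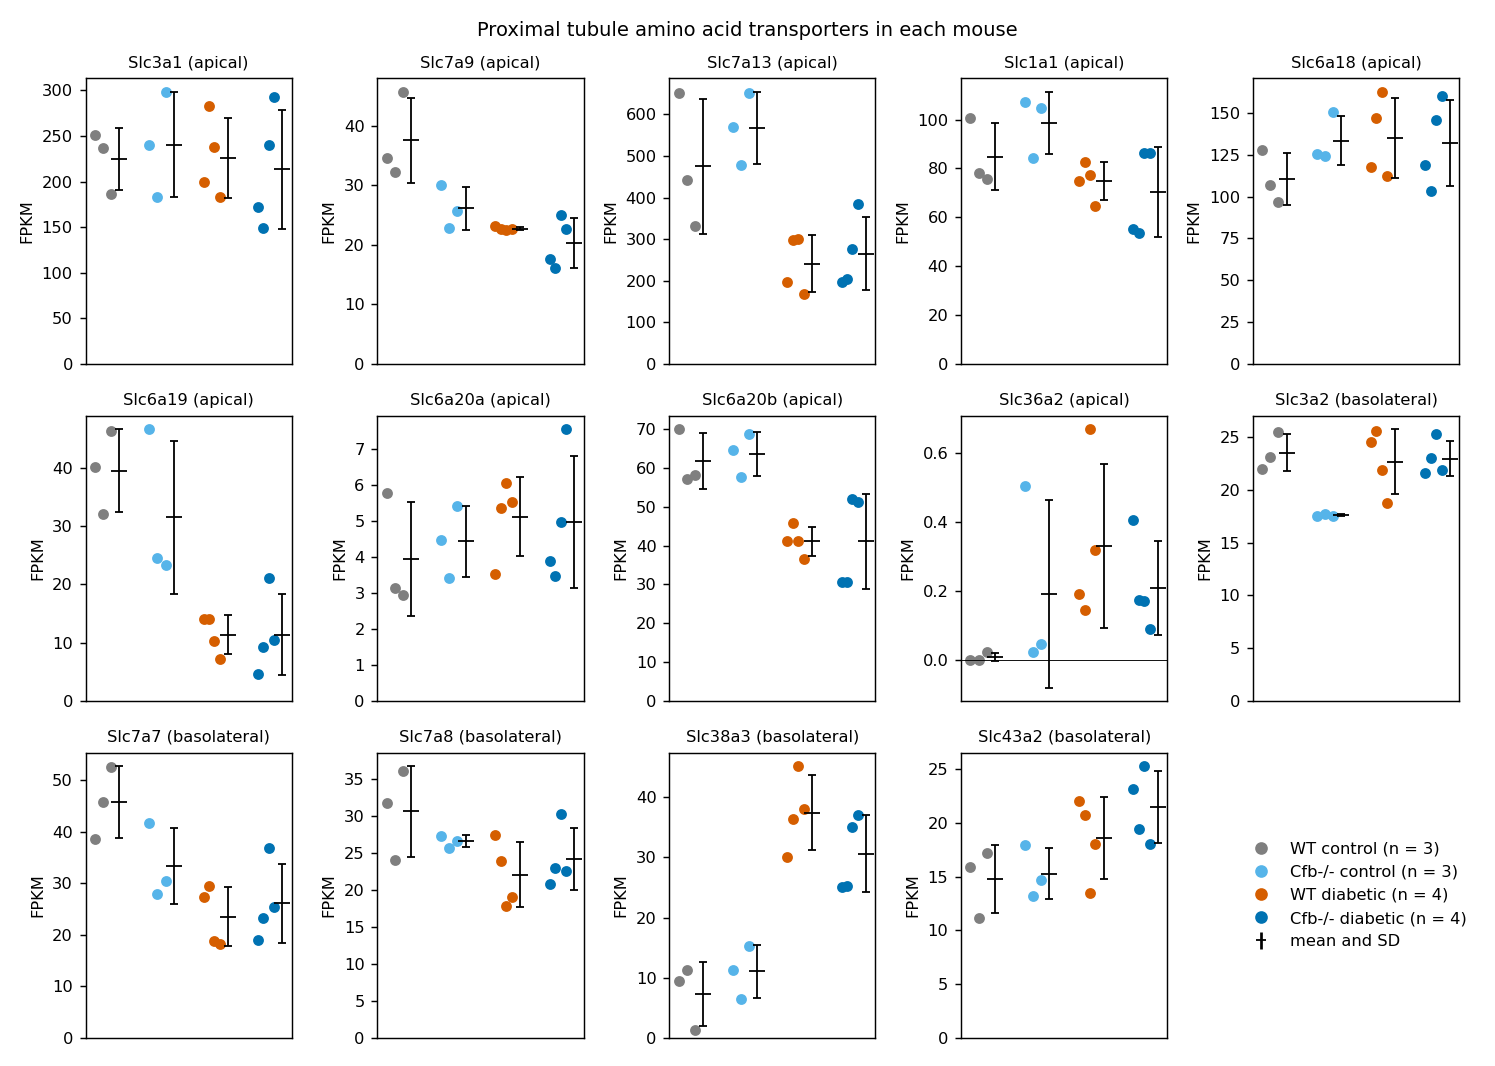
Level (FPKM, linear axes) of the 9 apical and 5 basolateral proximal tubule amino acid transporters in each mouse, by group, with the mean and SD beside the points. Slc6a19 and Slc7a13 were lower in the diabetic mice of both genotypes and Slc38a3 higher, while Slc3a1 and Slc6a18 ranges overlapped in all 4 groups.

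Basolateral carriers were called in both directions. Of the 5, 1 rose (Slc38a3, 20% beside 36.2% of all genes) and 2 fell (Slc7a7 and Slc7a8, 40% beside 9.97%) in WT mice. In Cfb-/- mice 2 rose (Slc38a3 and Slc3a2, 40% beside 27.4%) and none fell (background 6.4%). Their median log2 fold change was -0.06 in WT mice beside 0.29 for all genes, and 0.38 in Cfb-/- mice beside 0.22. Their summed level was 116 to 133 FPKM in WT control, 91.02 to 116 in Cfb-/- control, 112 to 136 in WT diabetic, and 109.6 to 153 in Cfb-/- diabetic mice.

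Slc38a3, which brings glutamine from the blood into proximal tubule cells for ammonia production, showed the steepest rise of any member in WT mice when all mice were fitted. Slc38a3 values (FPKM) were 9.44, 11.3, and 1.28 in the WT control mice, 11.4, 6.53, and 15.3 in the Cfb-/- control mice, 30.1, 36.3, 45.2, and 38.1 in the WT diabetic mice, and 25.1, 25.2, 35.1, and 37.1 in the Cfb-/- diabetic mice. Every diabetic mouse exceeded every control mouse, and WT control mouse 3 stood far below the others. In log2, the rise of Slc38a3 was 2.80 (SE 0.54, adjusted p = 0.000921) in WT mice (6.98-fold) and 1.83 without WT control mouse 3, which still passed. Its rank as the steepest rested on that mouse, since Slc7a5 rose by 1.98 with all mice and by up to 2.19 without 1 mouse. In Cfb-/- mice it was 1.52 (SE 0.54, adjusted p = 0.0407) (2.87-fold), and this call was lost when any 1 of 6 of the 7 Cfb-/- mice was left out, Cfb-/- control mouse 3 being the exception, and under both scalings (1.28 and 1.43). The same call was lost without the 0.1 FPKM filter (1.52) and with the replicate number as a block (1.46). The opposite side of the list was led by Slc7a7, the light subunit through which basic amino acids leave the cell. Slc7a7 values (FPKM) were 38.6, 45.9, and 52.6 in the WT control mice, 41.7, 27.9, and 30.4 in the Cfb-/- control mice, 27.3, 29.5, 18.9, and 18.3 in the WT diabetic mice, and 18.9, 23.2, 36.9, and 25.4 in the Cfb-/- diabetic mice. WT diabetic mice lay below all WT control mice, and the Cfb-/- groups overlapped. Its log2 fold change was -0.98 (SE 0.23, adjusted p = 0.00333) in WT and -0.37 (SE 0.23, adjusted p = 0.223) in Cfb-/- mice. Slc38a3 per Slc7a7 was therefore 0.0243 to 0.247 and 0.234 to 0.504 in WT and Cfb-/- control mice, and 1.102 to 2.39 and 0.951 to 1.46 in diabetic mice.

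Slc7a8, the neutral amino acid exchanger of the same membrane, had a log2 fold change of -0.47 (SE 0.17, adjusted p = 0.0345) in WT mice, where the groups overlapped (23.99 to 36.03 against 17.8 to 27.4 FPKM), and -0.15 (SE 0.17, adjusted p = 0.518) in Cfb-/- mice. The WT call was lost when WT diabetic mouse 3 or 4 or WT control mouse 1 or 3 was left out, with values of -0.34 to -0.43. It was also lost with only the compared groups in the fit (-0.47) and with the replicate number as a block (-0.43). Slc3a2, the heavy subunit of Slc7a7 and Slc7a8, had its lowest values in Cfb-/- control mice. Slc3a2 values (FPKM) were 21.97, 23.1, and 25.4 in the WT control mice, 17.5, 17.7, and 17.5 in the Cfb-/- control mice, 24.6, 25.6, 21.9, and 18.7 in the WT diabetic mice, and 21.6, 23.03, 25.3, and 21.9 in the Cfb-/- diabetic mice. The Cfb-/- control mice lay close together and below every other mouse. The log2 fold change with diabetes was 0.38 (SE 0.11, adjusted p = 0.0136) in Cfb-/- mice and -0.06 (SE 0.11, adjusted p = 0.666) in WT mice, and the Cfb-/- call was lost with median-ratio scaling (0.14) and quantile normalization (0.30). With median-ratio scaling it was the WT value that passed, as a fall (-0.34, adjusted p = 0.0394 by limma), so the genotype in which Slc3a2 was called depended on the scaling. Slc43a2, a uniporter of large neutral amino acids, had means of 14.8 ± 3.18, 15.3 ± 2.38, 18.6 ± 3.77, and 21.5 ± 3.34 FPKM (SD, n = 3, 3, 4, and 4), and its values of 0.33 and 0.49 did not pass (adjusted p = 0.164 and 0.0598). A sum was taken over 4 of the light subunits of Slc3a2 (Slc7a5, Slc7a6, Slc7a7, and Slc7a8). Per Slc3a2 this sum was 3.05 to 3.55 in WT control and 3.12 to 4.05 in Cfb-/- control mice, against 1.85 to 2.405 and 2.095 to 2.78 in diabetic mice.

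Of the 32 members outside these lists, 13 rose (Slc7a3 counted) and 3 fell in WT mice (40.6% and 9.38%). In Cfb-/- mice 9 rose and 3 fell (28.1% and 9.38%), and the shares in both genotypes were near those of all genes. Slc38a2, a sodium-coupled glutamine and alanine carrier that cells induce when amino acids run short, was the most abundant of those that rose. Slc38a2 values (FPKM) were 13.9, 7.80, and 11.1 in the WT control mice, 13.6, 16, and 29.7 in the Cfb-/- control mice, 33.04, 54.5, 57.5, and 26.4 in the WT diabetic mice, and 39.3, 33.01, 38.3, and 44.1 in the Cfb-/- diabetic mice. Every diabetic mouse exceeded the controls of its genotype, with Cfb-/- control mouse 3 near to the diabetic range. Its log2 fold change was 1.93 (SE 0.30, adjusted p = 0.000187) in WT and 1.04 (SE 0.30, adjusted p = 0.0138) in Cfb-/- mice, and the Cfb-/- call was lost without Cfb-/- control mouse 1 (0.82) or 2 (0.93).

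In the Slc7a family, Slc7a5, Slc7a1, Slc7a2, and Slc7a6 rose in both genotypes. Slc7a5, the light subunit that takes up leucine and other large neutral amino acids, is known for its place in growing and activated cells. Slc7a5 values (FPKM) were 0.377, 0.312, and 0.594 in the WT control mice, 0.987, 0.701, and 0.9997 in the Cfb-/- control mice, 1.94, 2.16, 1.57, and 2.09 in the WT diabetic mice, and 2.47, 2.48, 1.45, and 1.76 in the Cfb-/- diabetic mice. The diabetic mice were all above the controls of their genotype, and the Cfb-/- control mice were all above the WT control mice. On the log2 scale the rise was 1.98 (SE 0.23, adjusted p = 2.55e-05) in WT and 1.08 (SE 0.23, adjusted p = 0.00232) in Cfb-/- mice. Slc7a1, the widespread carrier of arginine and lysine, went the same way. Slc7a1 values (FPKM) were 0.998, 0.4904, and 0.933 in the WT control mice, 1.63, 1.18, and 1.64 in the Cfb-/- control mice, 2.92, 4.195, 2.88, and 2.47 in the WT diabetic mice, and 4.66, 3.39, 2.89, and 3.19 in the Cfb-/- diabetic mice. Its groups ordered as those of Slc7a5 did, without overlap between diabetic and control mice, at 1.85 (SE 0.24, adjusted p = 5.92e-05) and 1.19 (SE 0.24, adjusted p = 0.00177). Slc7a2, an arginine carrier of macrophages and liver among other sites, rose by 1.40 (SE 0.30, adjusted p = 0.0022) and 1.61 (SE 0.30, adjusted p = 0.000989), from 0.2096 to 0.492 and 0.2902 to 0.540 FPKM in control mice to 0.694 to 1.51 and 1.09 to 1.91 FPKM, and the WT call was lost with quantile normalization (0.65, adjusted p = 0.0517). Slc7a6, the more widespread relative of Slc7a7, rose by 1.74 (SE 0.24, adjusted p = 7.82e-05) and 1.13 (SE 0.24, adjusted p = 0.00215), from 0.404 to 0.907 and 0.856 to 1.004 to 2.08 to 2.47 and 1.67 to 3.16 FPKM, so that these relatives moved in opposite directions in WT kidneys. The overlapping gene Slc7a6os stayed at 6.73 to 9.84 FPKM over all mice (-0.079 and 0.018, neither passing), and whether the counting used strand is not given in the sources used here.

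Several low-level members rose as well. Slc38a1, a glutamine carrier related to Slc38a2, was at 0.175 to 0.317 and 0.297 to 0.644 FPKM in WT and Cfb-/- control and 0.873 to 1.06 and 0.875 to 1.32 in diabetic mice (1.58 (SE 0.24, adjusted p = 0.000157) and 1.23 (SE 0.24, adjusted p = 0.00121)). Slc36a4, a carrier of proline and tryptophan, rose by 1.14 (SE 0.21, adjusted p = 0.000792) and 0.81 (SE 0.21, adjusted p = 0.00875), and the Cfb-/- call was lost without Cfb-/- control mouse 2 (0.57) and with quantile normalization (0.36). Slc43a3, grouped here by family though it carries purine bases, rose by 0.73 (SE 0.16, adjusted p = 0.00233) and 1.18 (SE 0.16, adjusted p = 8.15e-05). Slc1a3, Slc7a3, and Slc7a12 passed in WT mice and not in Cfb-/- mice, and no such difference between genotypes passed its own test, as given below. Slc1a3, a glutamate carrier best known from glia, had a value of 1.36 (SE 0.32, adjusted p = 0.00405) in WT and 0.27 (SE 0.32, adjusted p = 0.554) in Cfb-/- mice, with control values of 0.195, 0.204, and 0.239 (WT) and 0.704, 0.137, and 0.561 (Cfb-/-) FPKM. The WT call was lost with quantile normalization (0.57, adjusted p = 0.144). Here Cfb-/- control mice 1 and 3 already lay in the range of the diabetic mice (0.569 to 0.886 in WT and 0.436 to 0.624 in Cfb-/-). Slc7a3, an arginine carrier, had 1.09 (SE 0.35, adjusted p = 0.02) and 0.67 (SE 0.35, adjusted p = 0.155) at levels of 0 to 0.0566 and 0.0834 to 0.292 FPKM in WT control and WT diabetic mice, and the WT call was lost without WT diabetic mouse 1 (0.89) or WT control mouse 2 (0.93), with quantile normalization (0.47), and with 1 FPKM added before taking logs (0.19). Slc7a3, too, reached 0.1 FPKM in 0 WT control mice (3 WT diabetic, 3 Cfb-/- diabetic, and 1 Cfb-/- control), so its WT call is a description as well. Slc7a12, a relative of Slc7a13, had 19.9, 6.17, and 0.322 FPKM in WT control and 13.7, 39.02, 22.2, and 17.9 in WT diabetic mice. These ranges overlapped, and WT control mouse 3 stood far below the rest. The log2 fold change of 2.52 (SE 0.92, adjusted p = 0.0371) was 0.94 without that mouse and no longer passed, nor did it pass with either scaling (2.25 with both). This call was lost in 10 of 15 alternatives, among them leaving out WT diabetic mouse 2, 3, or 4 or WT control mouse 2. WT control mouse 3 was also the lowest WT control for Slc38a3, as given above.

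Of the members outside the proximal tubule lists that fell, Slc6a15 moved most. This sodium-coupled carrier of branched-chain amino acids and proline is best known from neurons. Slc6a15 values (FPKM) were 6.697, 5.72, and 6.41 in the WT control mice, 9.898, 8.98, and 10.4 in the Cfb-/- control mice, 2.77, 2.06, 3.27, and 2.15 in the WT diabetic mice, and 2.38, 3.92, 3.71, and 2.33 in the Cfb-/- diabetic mice. No diabetic mouse reached the lowest control, and Cfb-/- control mice were all above WT control mice. Slc6a15 had a log2 fold change of -1.28 (SE 0.20, adjusted p = 0.000209) in WT and -1.67 (SE 0.20, adjusted p = 3.35e-05) in Cfb-/- mice. Slc36a1, which exports small amino acids from lysosomes and was the most abundant of its family, had values of -0.62 (SE 0.21, adjusted p = 0.0249) and -0.54 (SE 0.21, adjusted p = 0.0568), and the WT call was lost when any of 4 mice was left out (WT diabetic mouse 2 or 4, WT control mouse 1 or 3), with values of -0.50 to -0.56. The Cfb-/- value passed in 5 alternatives, among them median-ratio scaling (-0.78, adjusted p = 0.00761 by limma) and quantile normalization (-0.65, adjusted p = 0.038). Slc38a7, a lysosomal glutamine carrier, fell in WT mice (-0.36 (SE 0.11, adjusted p = 0.0204)) and was at 0.23 (SE 0.11, adjusted p = 0.134) in Cfb-/- mice. The WT call was lost without WT control mouse 2 (-0.34) or 3 (-0.31) and with the replicate number as a block (-0.30).

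Family counts are read beside 36.2% of all genes higher and 9.97% lower in WT mice, and 27.4% and 6.4% in Cfb-/- mice. By family, 6 of the 12 Slc7a genes rose and 4 fell in WT mice (50% and 33.3%). In Cfb-/- mice 4 of them rose and 1 fell (33.3% and 8.33%). Of the 2 Slc3a genes 0 were called in WT mice and 1 rose in Cfb-/- mice. In the Slc6a family (12 members), 1 rose and 3 fell in WT mice (8.33% and 25%) and 4 fell in Cfb-/- mice (33.3%). In the Slc38a family (9 members), 3 rose in each genotype, the same 3 genes (Slc38a1, Slc38a2, and Slc38a3), and 1 fell in WT mice. These rises were 33.3% of that family in each genotype, near the share of all genes. The Slc1a family (5 members) had 2 that rose in WT mice (Slc1a3 and Slc1a5) and 1 that rose and 2 that fell in Cfb-/- mice (Slc1a5, then Slc1a1 and Slc1a4), the Slc36a family (3 members) 2 that rose and 1 that fell in WT mice and 1 that rose in Cfb-/- mice, and the Slc43a family (3 members) 1 that rose in each. The WT rises of the Slc36a and Slc7a families count Slc36a2 and Slc7a3, whose calls are descriptions only. In summed FPKM, the Slc7a family went from 610.1 (WT) and 679.6 (Cfb-/-) in control to 351 and 381 in diabetic mice, most of it Slc7a13, and the Slc38a family from 49.5 and 59.2 to 109.8 and 101.

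**Figure D3:**
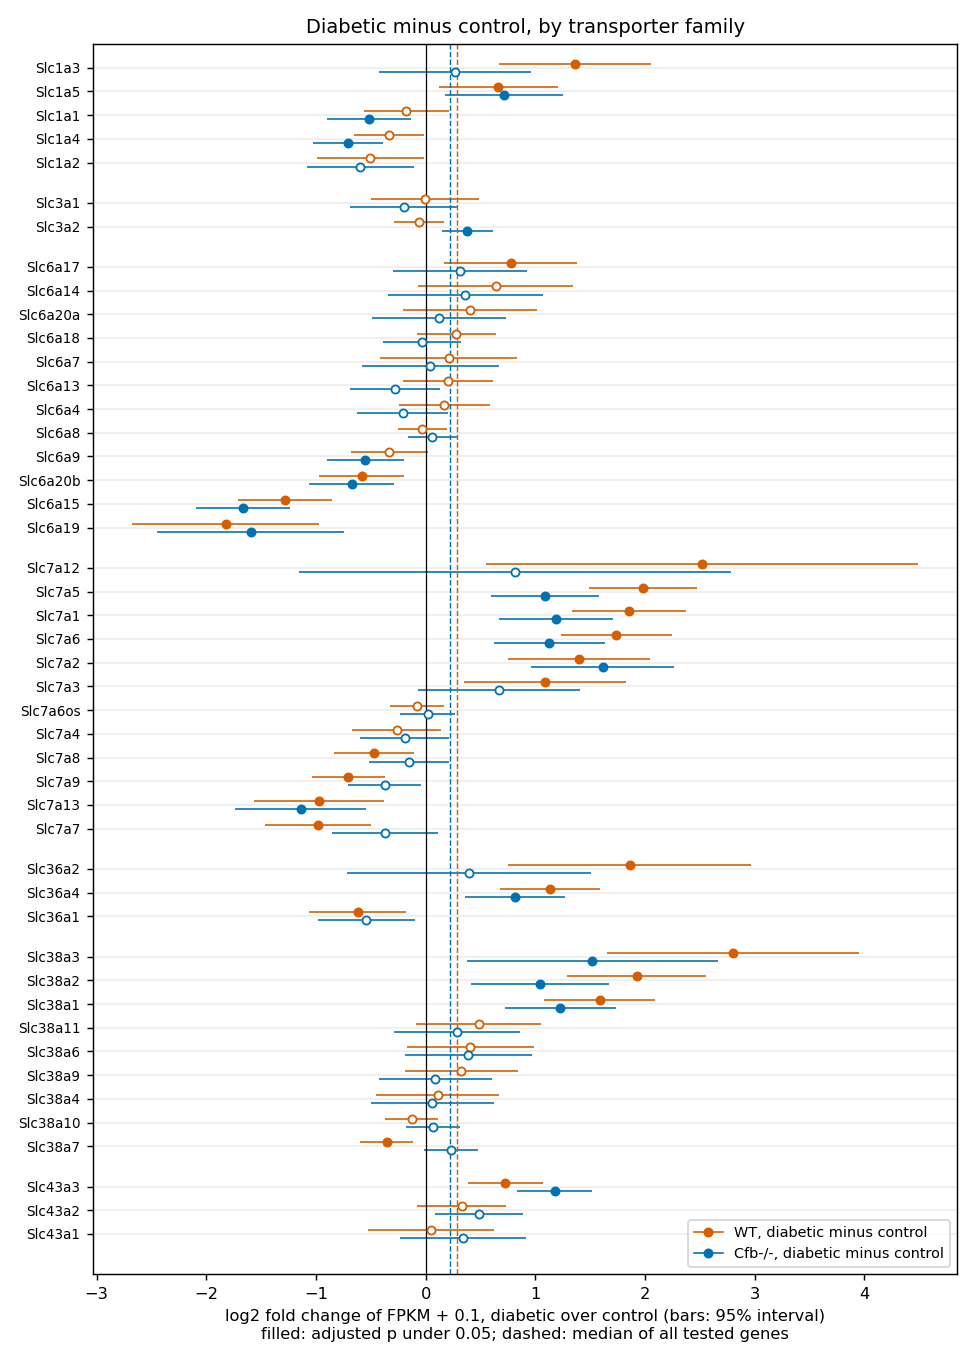
Log2 fold change of FPKM + 0.1, diabetic over control, for the 46 members by family in WT (orange) and Cfb-/- (blue) mice, with 95% intervals, filled points at an adjusted p under 0.05, and dashed lines at the median of all tested genes (0.29 and 0.22). Points of the genotypes lie on the same side of 0 for 38 of 46 members, with Slc38a3 farthest to the right and Slc6a19 farthest to the left in WT mice.

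Calls were compared between the genotypes, which have no mice in common. Of the 24 members called in WT mice and the 18 called in Cfb-/- mice, 14 were called in both (58.3% of the WT calls and 77.8% of the Cfb-/- calls), 10 higher and 4 lower in both, and none in opposite directions. The 24 count Slc36a2 and Slc7a3, which are not among the 14. Over all genes tested, 59.5% of the WT calls and 81.3% of the Cfb-/- calls were called in both, so the members' sharing was near that of all genes. Signs were the same for 38 of 46 members (82.7% over all genes), and Pearson's r between the log2 fold changes was 0.88 across the 46 genes and 0.81 across all genes, which are not independent of each other. Among the 10 that rose in both, the rise was larger in WT mice for 7. The difference itself, tested as the interaction of genotype and diabetes, passed for none of the 46 members (background 0.0%), and 4 had an unadjusted p under 0.05 (background 5.77%). These were Slc38a7 (difference 0.59 in log2, Cfb-/- minus WT response, adjusted p = 0.73), Slc3a2 (0.44, adjusted p = 0.779), Slc7a5 (-0.89, adjusted p = 0.779), and Slc1a3 (-1.10, adjusted p = 0.779), by limma. At the study's criteria 0 members had a positive and 1 (Slc1a3) a negative difference, beside 0.463% and 1.31% of all genes.

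To ask whether deletion of Cfb altered the transporters in the diabetic kidney, Cfb-/- diabetic mice were compared with WT diabetic mice. None of the 46 members passed in either direction (background 0.0% higher and 0.00671% lower, which is 1 gene), 0 had an unadjusted p under 0.05 (background 3.0%), and the groups overlapped for every member (background 2.75% not overlapping). Log2 differences ran from -0.42 to 0.38, with a median size of 0.13. Slc7a13 was at 241 ± 69.2 FPKM in WT and 265 ± 87.1 in Cfb-/- diabetic mice (SD, n = 4 each), Slc6a19 at 11.3 ± 3.30 and 11.3 ± 6.95, and Slc3a1 at 226 ± 44.1 and 213 ± 65.5. The 95% intervals of the log2 difference, Cfb-/- minus WT, were -0.42 to 0.68, -0.94 to 0.64, and -0.57 to 0.34, so differences of these sizes could not be told from none with 4 mice a group. At the study's criteria 0 members differed as well (background 0.0738% higher and 0.402% lower). The strongest members by limma were Slc38a6 (0.34), Slc1a3 (-0.41), and Slc7a2 (0.38), each with an adjusted p = 1. By exact two-sided permutation of 4 against 4 mice, whose smallest possible p is 0.0286, the smallest p of any member was 0.0571. The summed markers given above lay apart between these same groups for adipocytes and overlapped for urothelium.

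In control mice, differences between the genotypes were larger in size, and none passed. None of 46 members passed (background 0.0% higher and 0.00671% lower), 9 had an unadjusted p under 0.05 (background 17.5%), and the median size of the log2 difference was 0.37, against 0.13 in diabetic mice. For 6 members the Cfb-/- control mice all lay above the WT control mice (Slc1a4, Slc38a9, Slc6a15, Slc7a1, Slc7a3, and Slc7a5) and for 3 below (Slc38a7, Slc3a2, and Slc7a9), beside a background of 6.67% and 7.12%. At the study's criteria 0 members differed (background 0.946% higher and 0.221% lower). The strongest by limma were Slc38a7 (-0.47, adjusted p = 0.236), Slc7a5 (0.94, adjusted p = 0.236), and Slc3a2 (-0.42, adjusted p = 0.239). Slc38a7 was at 5.85, 6.52, and 6.84 FPKM in WT control and 4.601, 4.902, and 4.27 in Cfb-/- control mice. Leaving out WT control mouse 1 brought 4 members past the threshold, Slc7a1 and Slc7a12 higher and Slc38a7 and Slc3a2 lower, and also 6.34% of all genes higher and 5.14% lower, so this comparison turns on 1 mouse.

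**Figure D4:**
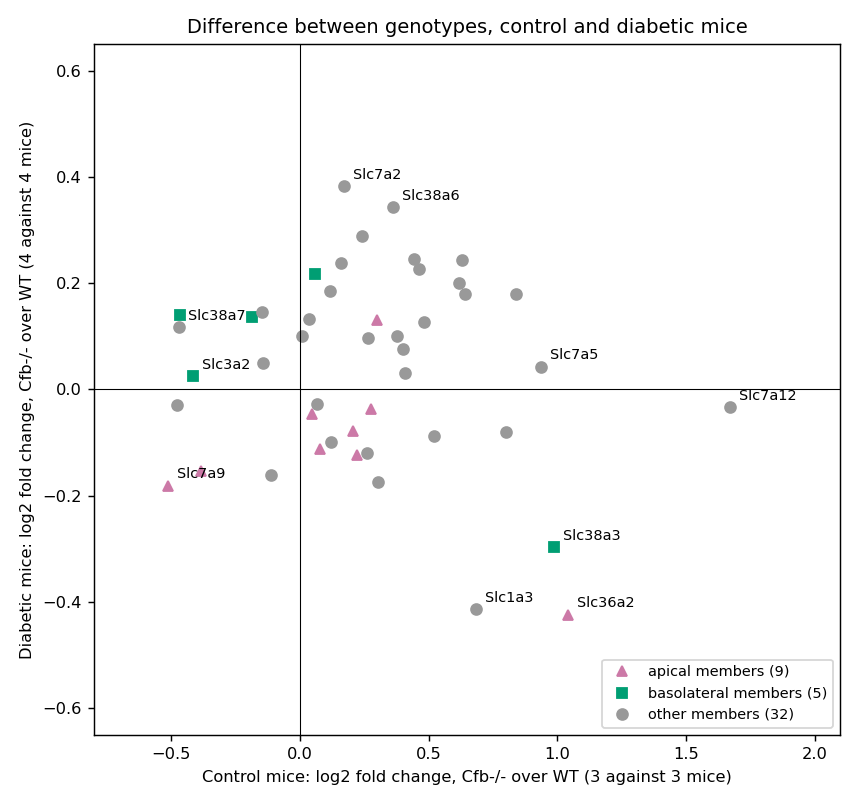
Log2 fold change of Cfb-/- over WT for the 46 members in control mice (horizontal axis, 3 against 3 mice) and in diabetic mice (vertical axis, 4 against 4 mice), with symbols for apical, basolateral, and other members. The spread along the control axis is wider (median size 0.37) than along the diabetic axis (0.13), and no point passed the test in either.

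The genes around the transporters were read from lists, each with all its members. Of 13 brush border peptidases and partner genes, 2 rose (Dpp4 and Mme) and 3 fell (Dpep1, Ggt1, and Tmem27) in WT mice. These were 15.4% and 23.1%, beside 36.2% and 9.97% of all genes. In Cfb-/- mice 1 rose (Dpp4) and 2 fell (Ggt1 and Tmem27), 7.69% and 15.4% beside 27.4% and 6.4%. Tmem27 (collectrin), the partner that Slc6a19 and Slc6a18 need to reach the brush border of the kidney, fell from 993 to 1148 and 770.1 to 979 FPKM in WT and Cfb-/- control to 555 to 717 and 396 to 630.1 FPKM in diabetic mice (-0.81 (SE 0.16, adjusted p = 0.00119) and -0.74 (SE 0.16, adjusted p = 0.00271)). The groups did not overlap within a genotype. Ggt1, which splits glutathione at the brush border and so frees amino acids, fell in both, with log2 fold changes of -0.94 (SE 0.13, adjusted p = 8.14e-05) and -0.82 (SE 0.13, adjusted p = 0.00025), while Dpp4, a peptidase that trims proline-containing peptides, rose by 0.90 (SE 0.15, adjusted p = 0.000324) and 0.55 (SE 0.15, adjusted p = 0.0104). The peptide carriers Slc15a1 and Slc15a2 did not pass in either genotype.

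Of 8 genes of the amino acid deprivation response, 5 rose (62.5%, background 36.2%) and 0 fell (background 9.97%) in WT mice. In Cfb-/- mice 4 rose (50%, background 27.4%) and 1 fell (12.5%, background 6.4%). Asns, asparagine synthetase, rose by 1.80 (SE 0.22, adjusted p = 4.15e-05) and 0.91 (SE 0.22, adjusted p = 0.00599), from 0.723 to 1.23 and 2.04 to 2.57 FPKM in control to 3.07 to 4.47 and 3.26 to 5.76 FPKM in diabetic mice. Trib3, a pseudokinase induced by the same response, rose by 1.13 (SE 0.35, adjusted p = 0.0178) and 1.67 (SE 0.35, adjusted p = 0.00218), and Phgdh, the entry enzyme of serine synthesis, by 1.59 (SE 0.27, adjusted p = 0.000378) and 1.63 (SE 0.27, adjusted p = 0.000373). Atf4, the factor at the centre of the response and controlled largely at translation, did not pass at the RNA level (0.35 and 0.22), and Psat1, a later enzyme of serine synthesis, fell in Cfb-/- mice (-0.63 (SE 0.22, adjusted p = 0.0408)).

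Most markers of the proximal tubule fell as well. Of 10 such genes, 6 fell in WT mice (60%, background 9.97%) and 8 in Cfb-/- mice (80%, background 6.4%). None rose, and the medians were -0.65 and -0.84, beside 0.29 and 0.22 for all genes. Slc5a2, the main glucose carrier of the early tubule, had log2 fold changes of -2.99 and -2.004, Slc34a1, a phosphate carrier, of -1.34 and -1.29, and Hnf4a, a transcription factor of the tubule, of -0.75 and -0.79 (all past the threshold), whereas Aqp1 and Cubn did not pass in either genotype. Leukocyte markers rose in 7 of 7 genes in WT and 6 of 7 in Cfb-/- mice (background 36.2% and 27.4%). Injury markers rose in 6 of 6 in both. The part of these markers in the rise of Slc7a5, Slc7a1, Slc7a2, and Slc38a2 was not tested. Beside the same background, adipocyte markers (4 of 4) and urothelial markers (5 of 5) rose in WT mice and 0 of them rose in Cfb-/- mice. These markers varied widely among Cfb-/- control mice, as given above. Their part in the results was not tested.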

How the data were processed

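Per the study's methods, total RNA was made into stranded mRNA libraries and sequenced from both ends. Whole kidney was taken from the labels, and the study's sequencing methods do not name the part of the kidney used. Its PCR measurements in mice used kidney cortex. The submitters' processing notes name Trimmomatic, HISAT2, Cufflinks, HTSeq, and DESeq and the build GRCm38.p6, without versions or roles. For each mouse the authors deposited 1 FPKM value per gene, a unit read from the values, and the read depth behind them is unknown, so no counting interval is given. The design foresaw a count test for counts and the test used here for FPKM. Nothing was dropped or imputed. A single list gene, left unnamed, is counted in its list and is not reported here otherwise.

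Genes with at least 0.1 FPKM in 3 or more mice were tested (14912 of 21878). Log2(FPKM + 0.1) was modelled by group in 1 fit over the 14 mice (limma 3.58.1 with the trend option, R 4.3.3), and p-values were Benjamini-Hochberg adjusted over all genes tested. Fold changes on this scale understate those of low genes. Called means an adjusted p under 0.05. The script was tested on simulated data. Single members were also compared by exact permutation in diabetic mice. By rule, all apical and basolateral members were named, the highest member of each family, members past the threshold with a log2 fold change of at least 1, and the members with the smallest p between genotypes. Other members appear only in counts, ratios, and lists of names. Members and lists were chosen with earlier results of these data known. Coordinates and promoters are RefSeq's on GRCm38.p6 (Python 3.11.15, pandas 2.3.3, matplotlib 3.10.9). Alternatives were another pseudocount, filter, scaling, sample set, call rule, a replicate block, and leaving out each mouse.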

Additional observations from a re-analysis of the deposited data

How the results depend on the processing

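The counts of called members and the list medians were recomputed under 22 alternatives, 14 of them leaving out 1 mouse each. In WT mice the number higher (15, Slc36a2 and Slc7a3 counted) was 9 with quantile normalization and 11 to 15 without 1 mouse. The number lower in WT mice (9) was 17 with median-ratio scaling, 2 at the study's criteria, and 5 to 9 without 1 mouse, the 5 without WT control mouse 1. In Cfb-/- mice the number higher (11) was 7 with quantile normalization and 7 to 11 without 1 mouse, the 7 without Cfb-/- control mouse 2, and the number lower (7) was 3 at the study's criteria and 5 to 9 without 1 mouse. The interaction had 1 lower member at the study's criteria, Slc1a3. Between genotypes in control mice, 0 to 2 members were higher and 0 to 2 lower without 1 mouse. With median-ratio scaling the median log2 fold change of apical members in WT mice was -0.46 in place of -0.18, and that of basolateral members -0.34 in place of -0.060 in WT and 0.14 in place of 0.38 in Cfb-/- mice. Without 1 mouse the apical median ran from -0.25 to -0.048 in WT (-0.048 without WT control mouse 1) and from -0.48 to -0.27 in Cfb-/- mice, and the basolateral median from -0.12 to 0.028 in WT (above 0 without WT diabetic mouse 4) and from 0.33 to 0.41 in Cfb-/- mice.

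Replicate numbers in the titles recur between groups. Deviations of same-numbered mice correlated at -0.39 to 0.24 (19 pairs, 3 above 0.1), against 22 of 54 pairs above 0.1 among differently numbered mice, so the numbers were not taken to pair the mice. With the number as a replicate block, 12 members were higher and 8 lower in WT and 9 higher and 6 lower in Cfb-/- mice, and 0 in the other comparisons.

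For the named members, 919 of 1016 alternative values kept direction and side of the threshold, 58 lost the call, 15 gained one, and 24 reversed, all of these for values that had not passed. With median-ratio scaling Slc6a18 was -0.0011 in WT, and Slc6a20a was -0.12 and Slc38a7 -0.0085 in Cfb-/- mice. With quantile normalization Slc3a1 was 0.24 and Slc38a6 -0.21 in WT mice, and Slc36a2 -0.19, Slc6a18 0.10, Slc6a20a -0.21, Slc1a3 -0.41, Slc38a6 -0.10, and Slc38a7 -0.067 in Cfb-/- mice. With the replicate block Slc6a20a was -0.0097 in Cfb-/- mice. Without 1 mouse, Slc3a1 ran from -0.13 to 0.090 and Slc3a2 from -0.12 to 0.028 in WT mice, and Slc36a2 from -0.035 to 1.13, Slc6a18 from -0.13 to 0.078, Slc6a20a from -0.096 to 0.27, and Slc1a3 from -0.27 to 0.61 in Cfb-/- mice. Of the called named members, 12 of 22 in WT and 10 of 15 in Cfb-/- mice kept the call under each alternative. The cause of these changes was not tested. Depth is unknown, and members near 0 FPKM, such as Slc36a2 and Slc7a3, are read coarsely.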
